A study of Mus musculus with 31 samples.

Results

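The 9 postsynaptic scaffold genes described here were Dlg4, Dlgap1, Dlgap2, Dlgap3, Dlgap4, Shank1, Shank2, Shank3 and Iqsec2. They were selected by name, as scaffold and signalling genes of the postsynaptic density that are mostly known as mRNAs bound by FMRP. The choice was made with earlier results of these data known, so counts of the 9 set beside all genes are descriptive only. The 9 make up a small part of the 20436 genes in the count tables. Binding by FMRP, the RNA-binding protein encoded by Fmr1, was not measured in these files. The study profiled ribosome-protected mRNA fragments (footprints) and polyA-selected mRNA from mouse brain cortex at postnatal day 29 to 34. The 4 genotypes were wild type (WT), Fmr1-deficient (FXS, a mouse model of fragile X syndrome), Rps6kb1-deficient (S6K1, lacking the ribosomal protein S6 kinase encoded by that gene) and deficient in both genes (DKO). The labels name no allele, strain or sex for any group. Transcripts of the Y-linked gene Ddx3y were found in every library, at 36.2 to 49.1 CPM (the count scaled to the size of the library) in mRNA and 66.9 to 136.1 CPM in footprints.

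There were 4 mRNA libraries of each genotype, 1 in each of the labelled batches 5 to 8. Footprint libraries numbered 4 for WT, 5 for FXS, 3 for S6K1 and 3 for DKO, in batches 1 to 4, and batch 1 held 1 DKO and 1 S6K1 library only. Total counts per library were 12.1 to 17.3 M for mRNA and 16.6 to 34.9 M for footprints. Nothing in the labels says that the libraries of a group came from separate animals, so the p-values measure the spread between these libraries, which may be technical. Fmr1 mRNA was at 55.7 to 77.6 CPM in WT, 65.8 to 82.6 CPM in S6K1, 13.1 to 22.1 CPM in FXS and 10.6 to 21.6 CPM in DKO. Rps6kb1 footprints were at 26.1 to 31.7 CPM in WT and 29.4 to 36.4 CPM in FXS, but at 7.62 to 12.8 CPM in S6K1 and 11.27 to 11.97 CPM in DKO. Rps6kb1 mRNA was at 39.47 to 55.45 CPM in WT, 28.17 to 43.68 CPM in S6K1 and 28.53 to 39.56 CPM in DKO, so these groups overlapped with WT. Both targeted genes were thus lower in the libraries labelled as lacking them, for Rps6kb1 more clearly in footprints than in mRNA.

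The postsynaptic density is the protein meshwork beneath the membrane of an excitatory synapse that holds glutamate receptors in place and couples them to signalling enzymes and actin. PSD-95, the product of Dlg4, binds receptors and adhesion proteins from the membrane side. The DLGAP (SAPAP) proteins bind PSD-95 and SHANK proteins, and SHANK proteins bind Homer and actin regulators on the inner side, so the 3 families form successive layers. The product of Iqsec2 is a guanine nucleotide exchange factor for Arf GTPases that also binds PSD-95. Several of these mRNAs are found in dendrites, where synapses can be supplied with newly made protein.

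The 9 genes lie on 8 chromosomes, with Shank1 and Shank2 both on chromosome 7 and Iqsec2 on the X, the chromosome that also carries Fmr1. Dlg4 lies on chromosome 11, as does Rps6kb1, 16.45 Mb and 192 tested genes away. Dlgap4 spans 156613633 to 156764363 on chromosome 2, and Shank1 spans 44308916 to 44360094 on chromosome 7, in the RefSeq annotation of GRCm38.p6. RefSeq start-site sequences, 250 bases before to 50 bases after each start, were matched by symbol for 6 of the 9 genes and hold 10 start sites. Of these windows 3 are shown. Dlgap4 is the 1 gene whose mRNA difference passed the test, and the windows of Shank3 and Dlgap3 were picked as rich and poor in G and C. Each runs 5′ to 3′ on the plus strand of GRCm38.p6, with every GC box (GGGCGG or its reverse complement CCGCCC) in capitals. Dlgap4 is chr2:156720715-156721014, Shank3 is chr15:89499358-89499657 and Dlgap3 is chr4:127172630-127172929. All 3 windows lie downstream of the first annotated base of their gene, at 156613633 for Dlgap4, 89493013 for Shank3 and 127168305 for Dlgap3. Sequence at those first starts was not examined.
Dlgap4: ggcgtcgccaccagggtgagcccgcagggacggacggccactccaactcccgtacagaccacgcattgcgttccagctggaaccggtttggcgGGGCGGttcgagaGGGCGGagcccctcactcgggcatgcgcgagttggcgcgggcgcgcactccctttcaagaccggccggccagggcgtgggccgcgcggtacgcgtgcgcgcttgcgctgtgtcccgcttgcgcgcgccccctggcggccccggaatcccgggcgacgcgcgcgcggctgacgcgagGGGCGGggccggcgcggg
Shank3: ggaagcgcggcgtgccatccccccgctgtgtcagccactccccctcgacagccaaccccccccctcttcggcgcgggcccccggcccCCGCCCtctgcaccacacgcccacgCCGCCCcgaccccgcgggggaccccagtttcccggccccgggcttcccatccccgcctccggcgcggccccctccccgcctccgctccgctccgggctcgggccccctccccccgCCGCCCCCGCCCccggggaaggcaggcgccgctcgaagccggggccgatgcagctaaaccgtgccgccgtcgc
Dlgap3: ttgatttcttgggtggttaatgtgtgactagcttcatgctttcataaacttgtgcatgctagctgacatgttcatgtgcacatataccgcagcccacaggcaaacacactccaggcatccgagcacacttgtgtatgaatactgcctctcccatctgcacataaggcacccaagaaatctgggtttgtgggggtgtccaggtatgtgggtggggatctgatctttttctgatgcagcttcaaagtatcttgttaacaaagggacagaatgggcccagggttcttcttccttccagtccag

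The Dlgap4 window was 76.3% G and C, with 50 CpG dinucleotides and 3 GC boxes. The Shank3 window was 81% G and C, at the 99.3th percentile of all windows, with 40 CpG dinucleotides and 4 GC boxes. The Dlgap3 window was 47.7% G and C with 2 CpG dinucleotides and no GC box, against medians of 52.7% and 7 over all 32851 windows. Counting both strands, a GC box was found in 4 of the 10 start sites and in 35.7% of all windows. An E box (CACGTG) was found in 1 of the 10, against 7.15% of all windows, and a cyclic AMP response element (TGACGTCA) in none, against 1.79%. The Dlgap4 and Shank3 windows were both richer in G and C and in CpG than the median window, and the Dlgap3 window was not. Shank3 and Dlgap3 were picked for their G and C content, so the contrast between them follows from that choice. A link between these sequences and the mRNA differences was not tested.

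Footprint density per mRNA differed widely among the 9 genes in WT cortex. Translational efficiency (TE) is the ratio of footprint CPM to mRNA CPM of a gene, and unlike either level it does not grow with gene length. The authors named both tables as counts over coding sequence, so the same part of each gene was counted in both assays. Dlgap2 had the highest TE level, 2.22 (1.72 to 2.85, from the lowest footprint over the highest mRNA library to the reverse), at the 92.1th percentile of 13654 genes. Dlgap1 followed at 1.33 (1.23 to 1.55), then Shank2 at 0.751 (0.482 to 1.24) and Dlgap4 at 0.7 (0.511 to 0.794). Shank3 stood at 0.332 (0.211 to 0.506) and Iqsec2 at 0.302 (0.219 to 0.394). The lowest TE levels were those of Dlg4 at 0.192 (0.172 to 0.217), Shank1 at 0.177 (0.123 to 0.291) and Dlgap3 at 0.115 (0.0759 to 0.153), the last at the 2.34th percentile. The DLGAP family thus held both ends of the order, while 2 SHANK genes stood low and Shank2 near the middle of all genes, at the 47.5th percentile. 4 of the steps in the order lay within the spread of the libraries, between Shank2 and Dlgap4, Shank3 and Iqsec2, Dlg4 and Shank1, and Shank1 and Dlgap3, and the ranges of Dlgap1 and Shank2 met at their edges. Ranges did not meet between Dlgap2 and Dlgap1, Dlgap4 and Shank3, or Iqsec2 and Dlg4.

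In the other genotypes Dlgap2 also had the highest TE level (1.74, 1.76 and 1.69 in FXS, S6K1 and DKO) and Dlgap3 the lowest (0.0853, 0.0882 and 0.0661). Shank1 stood at the 5.08th percentile in WT, the 2.48th in FXS, the 2.85th in S6K1 and the 1.76th in DKO. These levels take no account of batch, which is weighed in the tests below.

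**Figure D1:**
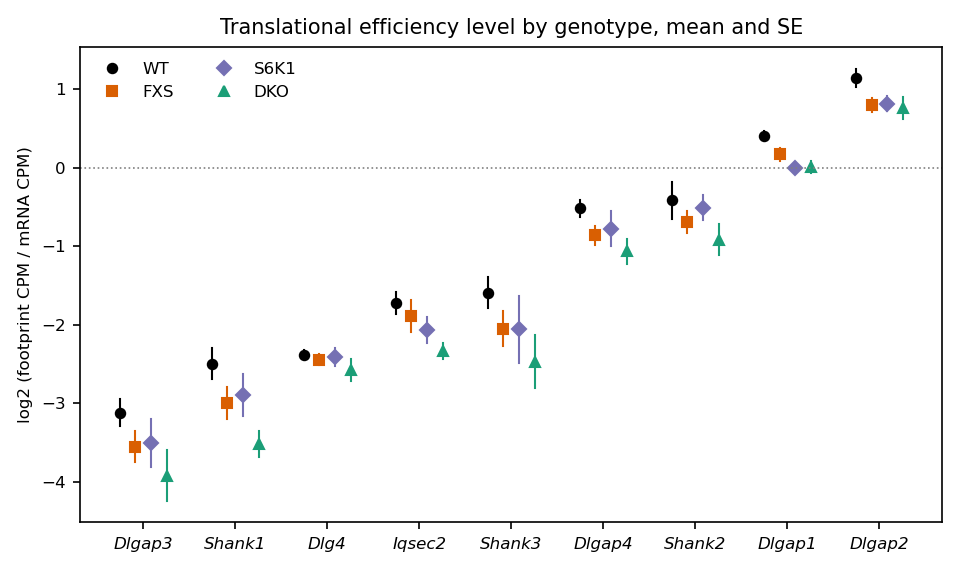
TE level of each scaffold gene (log2 of footprint CPM over mRNA CPM, mean with SE over libraries, not adjusted for batch), ordered by the WT level, with 1 symbol per genotype. Levels run from Dlgap3 (0.115 in WT) to Dlgap2 (2.22 in WT), and Dlg4 is the gene whose 4 genotypes lie closest together.

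The mRNAs of all 9 genes lay above WT in FXS cortex, by a median of 0.21 on the log2 scale, while the median of the 14215 genes tested was -0.01 and 47.9% of them lay above 0. No single difference passed the test (edgeR's quasi-likelihood test with batch in the model, called where the p adjusted by Benjamini-Hochberg across the whole table was under 0.05), and 0.155% of all genes passed it. At an unadjusted p under 0.05 there were 7 of the 9, against 12.7% of all genes. DESeq2 called Dlgap4 alone, as did edgeR without the FXS library of batch 8, and limma voom called none. In bulk cortex, a different share of cells that express these genes and a different amount of mRNA per cell cannot be told apart.

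In DKO cortex all 9 mRNAs again lay above WT, with a median log2 difference of 0.17 against -0.003 for all genes, of which 49.4% lay above 0. Dlgap4 rose and was the 1 gene of the 9 called, where 5.23% of all genes were called. An unadjusted p under 0.05 was reached by 7 of the 9 and by 22.3% of all genes. The share of members called was therefore close to the background, and the count at the unadjusted threshold was above it.

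Dlgap4 encodes a DLGAP linker between PSD-95 and SHANK proteins. Its mRNA stood at 312.5, 306.9, 317.7 and 386.2 CPM in the WT libraries of batches 5, 6, 7 and 8. The FXS libraries of the same batches stood at 358.6, 409.5, 388.1 and 392 CPM, and the DKO libraries at 359.3, 403.5, 376 and 436.8 CPM. Within every batch both genotypes were higher than WT, but the groups overlapped because the WT library of batch 8 exceeded the lowest FXS and DKO libraries. The S6K1 libraries, at 314.3, 350.9, 315.7 and 384.4 CPM, lay over the WT range. The fitted log2 difference was 0.25 ± 0.0642 (SE) in DKO, with an adjusted p of 0.0258 by edgeR's quasi-likelihood test, and 0.23 ± 0.0642 in FXS, with an adjusted p of 0.128. The DKO call held in 8 of 16 alternative analyses. It was lost, at log2 differences of 0.20 to 0.27, when any 1 of the WT or DKO libraries of batches 5, 6 and 7 was left out, without batch 5 as a whole, and without the batch term.

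Shank1, a SHANK scaffold of dendritic spines, had the largest mRNA difference of the 9 in both genotypes. Its mRNA stood at 353.4, 301.6, 331.9 and 432.7 CPM in WT, batches 5 to 8 in that order. The FXS libraries stood at 380.6, 486.6, 462.7 and 512.4 CPM and the DKO libraries at 389.1, 482.2, 461.4 and 505.7 CPM. Both were higher than WT in each batch, least so in batch 5, and overlapped with WT through the high WT library of batch 8. In S6K1 the values were 281.1, 374.2, 320.7 and 602.3 CPM, the last being the highest Shank1 value of all 16 libraries. The fitted log2 differences were 0.38 ± 0.125 in FXS and 0.37 ± 0.125 in DKO, with adjusted p-values of 0.24 and 0.0953 by edgeR.

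Shank3, the SHANK gene tied to Phelan-McDermid syndrome, gave 0.27 ± 0.099 in FXS and 0.28 ± 0.0991 in DKO, with adjusted p-values by edgeR of 0.278 and 0.101. Its WT libraries ran from 157.5 to 243.5 CPM, its FXS libraries from 173.1 to 254.9 CPM and its DKO libraries from 165.5 to 264.8 CPM, so the groups overlapped over most of their range. Shank2, the SHANK gene with the highest TE level, gave 0.22 and 0.17, from WT libraries at 103.8 to 150.3 CPM. Iqsec2 gave 0.21 in both, from WT libraries at 198.6 to 279.4 CPM against 247.6 to 278.1 CPM in FXS and 247.2 to 285.9 CPM in DKO. None of these passed the test.

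Dlgap1 was the 1 gene whose mRNA libraries did not overlap with WT, and this held in each of the other genotypes. WT stood at 327.5, 301.7, 337.2 and 333.7 CPM, FXS at 349.3, 360.9, 353.2 and 343.9 CPM, S6K1 at 382.2, 358.3, 339.1 and 371.3 CPM and DKO at 370.4, 339.4, 354.9 and 363.8 CPM. The gaps between groups were narrow, 337.2 CPM for the highest WT library against 339.1 CPM for the lowest S6K1 library. Such separation toward higher values was found for 1.41% of all genes in FXS, 0.788% in S6K1 and 3.40% in DKO. The fitted log2 differences of 0.12, 0.16 and 0.14 did not pass the test. Dlgap2 gave 0.18 in FXS and 0.17 in DKO, Dlgap3 gave 0.18 and 0.15, and Dlg4, at 1459 to 1816 CPM over all libraries, gave 0.07 and 0.08, with no call among the 3.

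**Figure D2:**
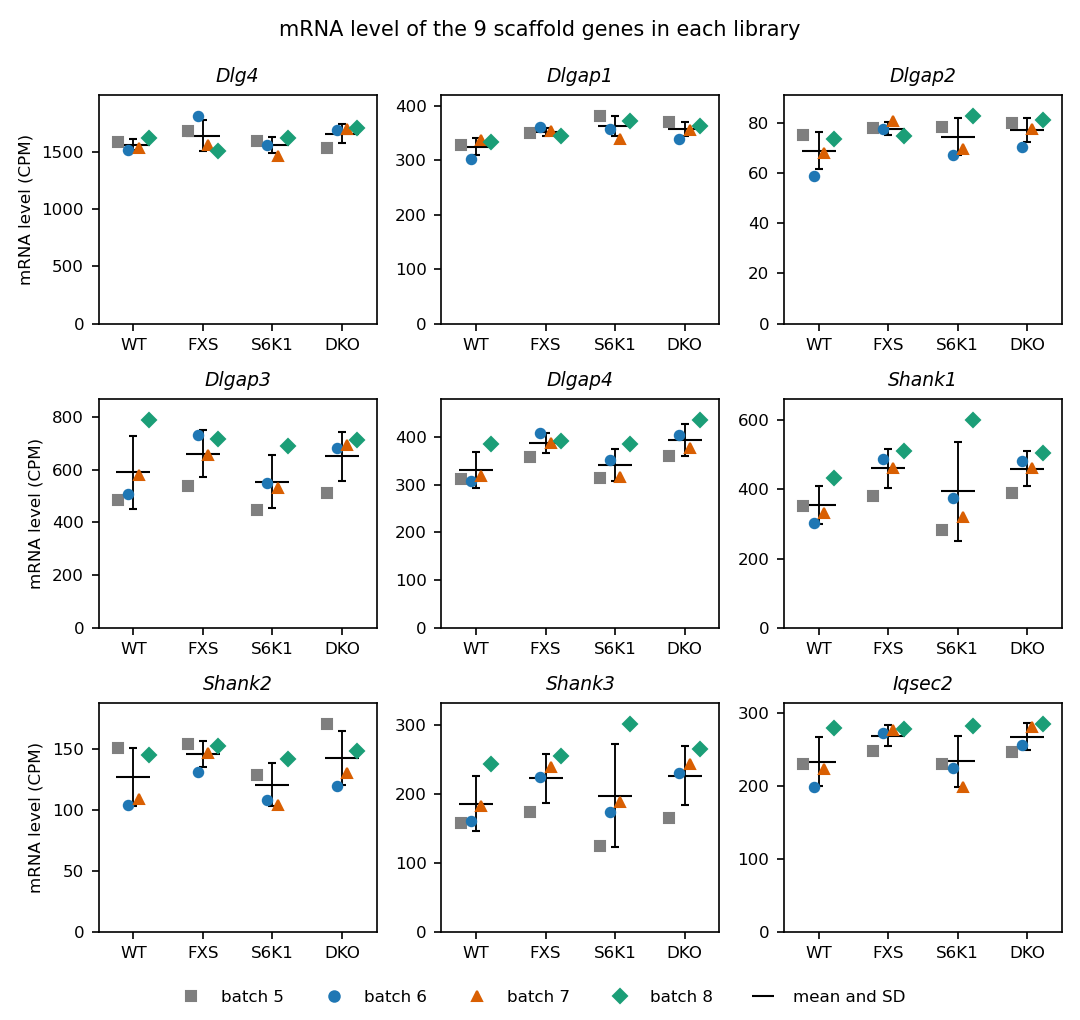
mRNA level (CPM) of each scaffold gene in each of the 16 mRNA libraries, by genotype, with the symbol giving the labelled batch and the black mark the mean and SD. Dlgap1 shows the only complete separation from WT, and the Shank3 libraries of batch 5 are the lowest and those of batch 8 the highest of every genotype.

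The S6K1 mRNAs of the 9 genes scattered around WT, 6 above and 3 below, with a median log2 difference of 0.05, no call (0.0211% of all genes) and 1 gene, Dlgap1, at an unadjusted p under 0.05 (7.37% of all genes). Where DKO was compared with S6K1, which asks what loss of Fmr1 adds on the Rps6kb1-deficient background, 8 of 9 lay above 0 with a median of 0.21. None of the 9 was called (0.387% of all genes), and 5 reached an unadjusted p under 0.05, against 14.8% of all genes. DESeq2 called Shank2 and Dlgap4 there, and edgeR called Shank1, Shank2 and Shank3 once the S6K1 library of batch 8 was left out. The share of all genes called by DESeq2, and the highest share over fits without 1 library, are given in the closing section. These calls are therefore not read as particular to the 9 genes. Where DKO was compared with FXS, the differences ran from -0.05 (Shank2) to 0.02 (Dlgap4), with 4 above and 5 below 0, no call (0.0281% of all genes) and none at an unadjusted p under 0.05 (9.81%). DESeq2 and limma voom called none in the S6K1 against WT and DKO against FXS comparisons. The 95% interval for Shank1 in DKO against FXS ran from -0.27 to 0.26, so differences within that range in either direction were not excluded. The comparisons with WT share the WT libraries, and those of DKO share the DKO libraries.

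Batch 8 weighed on the mRNA calls. Leaving out its 4 libraries, an alternative chosen after seeing the data, gave 5 called genes in FXS against WT, 5 in DKO against WT and 6 in DKO against S6K1, where 2.39%, 10.6% and 3.89% of all genes were called. In both comparisons with WT these were Shank1, Shank3, Dlgap3, Dlgap4 and Iqsec2, all higher, with log2 differences of 0.29 to 0.42 in FXS and 0.25 to 0.42 in DKO. Leaving out batch 5 instead gave 0 called genes in FXS and 0 in DKO, with medians of 0.25 and 0.19. The share of all genes called without batch 5 is given for DKO in the closing section and is not given for FXS. In FXS the step from 5 to 0 called genes therefore cannot be weighed against all genes. Within single batches, 9 of 9 genes were above WT in FXS in batches 5, 6 and 7 (medians 0.10, 0.42 and 0.29) and 6 of 9 in batch 8 (median 0.02). For DKO the counts were 8, 9, 9 and 8 of 9 in batches 5 to 8, with medians of 0.10, 0.37, 0.26 and 0.12. Over genes and batches, 33 of 36 differences were above 0 in FXS and 34 of 36 in DKO. All 9 genes of a batch share the same libraries, so these differences are not independent, and the same count over all genes was not made. The exceptions in FXS were Dlg4, Dlgap3 and Iqsec2 in batch 8, where the WT library had the highest Dlgap3 level of all, 790.3 CPM.

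Footprints of most of the same genes lay below WT, where 49.7% of all genes lay above 0 in FXS and 48% in DKO. In FXS cortex 8 of 9 were below 0, with a median log2 difference of -0.13 against -0.001 for the 13953 genes tested, and in DKO cortex 8 of 9 with a median of -0.17 against -0.01. None was called in either, where 0.165% and 0.366% of all genes were, and 1 of 9 in each reached an unadjusted p under 0.05 (9.87% and 17.1% of all genes), Dlgap2 in FXS and Shank1 in DKO. DESeq2 and limma voom called none as well. Dlg4 footprints were level with WT, at -0.004 in FXS and 0.02 in DKO, and Iqsec2 footprints were level in FXS, at 0.001.

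Shank1 had the largest footprint difference in DKO. WT libraries stood at 87.7, 54.19, 60.17 and 53.02 CPM, in batches 2, 3, 4 and 4, and DKO libraries at 33.14, 40.96 and 46.72 CPM, in batches 1, 3 and 4. Every DKO library was below every WT library. The FXS libraries, at 80.81, 64.65, 38.36, 59.38 and 52.01 CPM, and the S6K1 libraries, at 46.21, 59.15 and 47.79 CPM, overlapped with WT. The fitted log2 difference was -0.42 ± 0.137 in DKO, with an adjusted p of 0.163 by edgeR, and -0.19 ± 0.111 in FXS.

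Dlgap1 and Iqsec2 were the other genes whose DKO footprint libraries all lay below WT. Dlgap1 footprints stood at 413.8, 418.5, 468 and 426.5 CPM in WT and at 338.1, 348.1 and 394.4 CPM in DKO. The S6K1 libraries of Dlgap1, at 335.3, 381.6 and 373.2 CPM, also lay below every WT library, the reverse of its mRNA. Iqsec2 footprints stood at 61.18 to 78.35 CPM in WT and 46.54 to 57.04 CPM in DKO. Separation toward lower values was found for 3 of the 9 genes against 7.22% of all genes in DKO, and for 1 of the 9 against 6.41% in S6K1. Fitted with batch, the log2 differences in DKO were -0.18 ± 0.0879 for Dlgap1 and -0.28 ± 0.164 for Iqsec2, and neither passed the test.

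Batch changed the size of the footprint differences. Batch 1, which held no WT and no FXS library, was low for all 9 genes, from -0.04 (Iqsec2) to -0.57 (Shank3) on the log2 scale relative to the genotype means, and batch 2 was high for all 9. Plain means therefore put S6K1 and DKO further below WT than the fit did. Shank3 footprints averaged 61.5 ± 12.4 CPM (SD, n = 4) in WT and 41.9 ± 15.2 CPM (n = 3) in DKO, a plain log2 difference of -0.60, where the fit gave -0.17 ± 0.142. For Dlgap3 the plain value was -0.64 and the fitted value -0.28 ± 0.154, and for Dlgap4 they were -0.30 and -0.05 ± 0.106. Within batches, 22 of 27 gene-by-batch differences were below 0 in FXS against WT, and 13 of 18 in DKO against WT, where only batches 3 and 4 hold both genotypes. Here too the genes of a batch share its libraries, so these differences are not independent, and no such count was made over all genes.

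**Figure D3:**
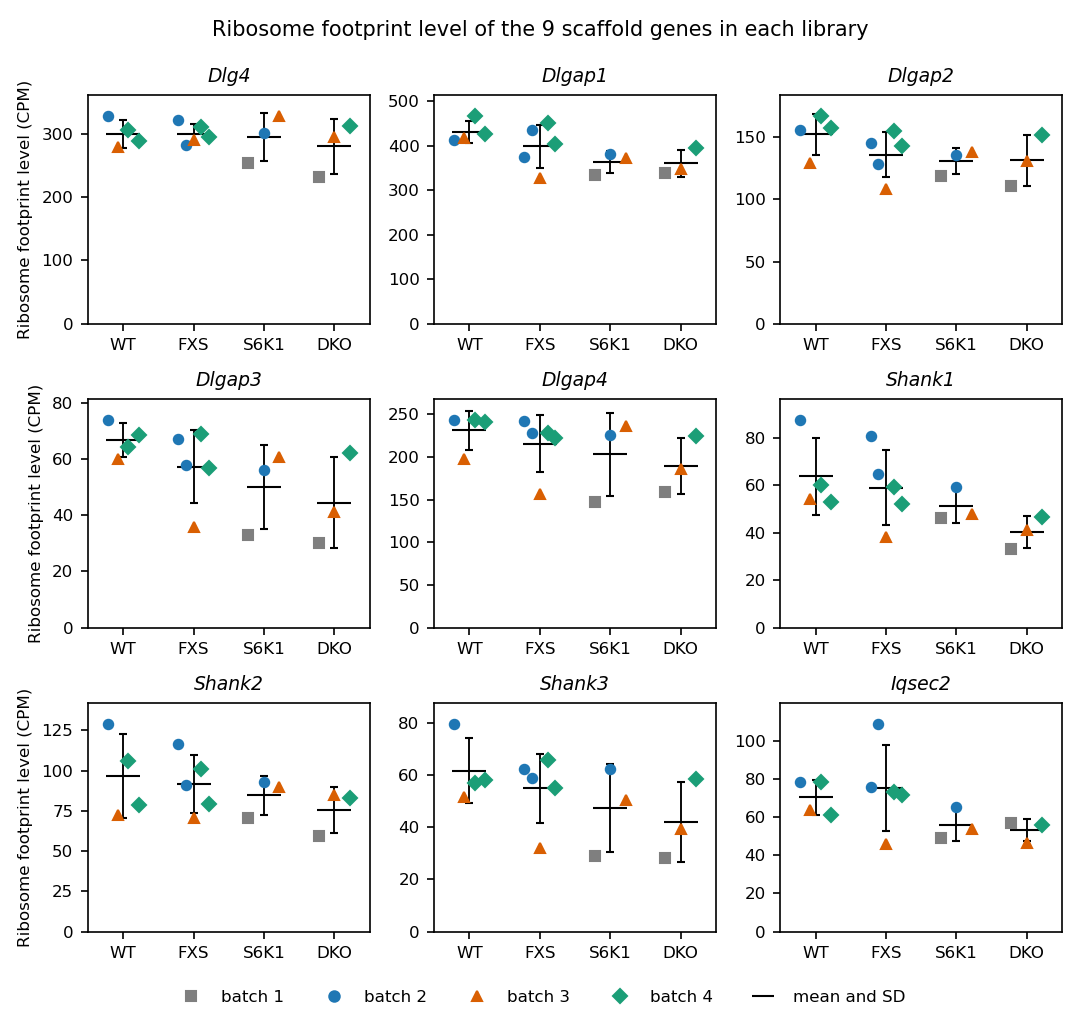
Footprint level (CPM) of each scaffold gene in each of the 15 footprint libraries, by genotype, with the symbol giving the labelled batch and the black mark the mean and SD. For Shank1, Dlgap1 and Iqsec2 all 3 DKO libraries lie below all 4 WT libraries, and the batch 1 libraries are the lowest of their genotype for most genes, such as 28.94 CPM in S6K1 and 28.26 CPM in DKO for Shank3.

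**Figure D4:**
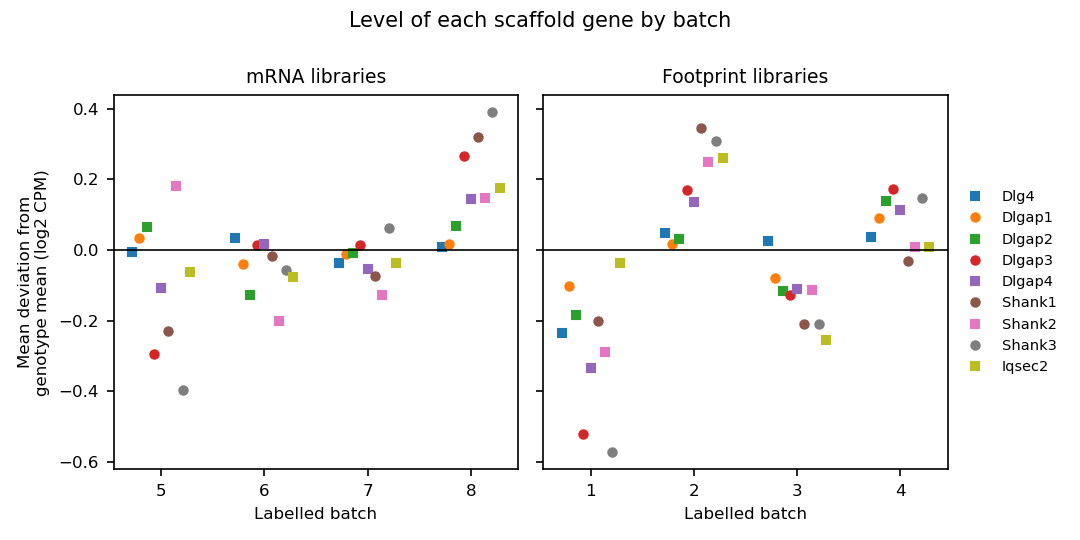
Mean deviation of each gene's log2 CPM from its genotype mean in each labelled batch, for mRNA libraries (left) and footprint libraries (right). Shank3, Dlgap3 and Shank1 spread most between batches 5 and 8 (Shank3 from -0.40 to 0.39) and all 9 genes are below 0 in footprint batch 1.

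In the remaining footprint comparisons none of the 9 genes was called, and none reached an unadjusted p under 0.05. In S6K1 against WT (0.00717% of all genes called, 8.74% at the unadjusted threshold) 7 of 9 were below 0, with a median of -0.05. In DKO against S6K1 (0.00717% and 8.67%) 8 of 9 were below 0, with a median of -0.09. In DKO against FXS (0.0143% and 6.19%) 5 were above and 4 below 0. DESeq2 and limma voom called none of the 9 in these 3 comparisons.

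TE, tested as the footprint difference minus the mRNA difference in 1 model of all 31 libraries, was below WT for all 9 genes in both Fmr1-deficient genotypes. In FXS the median log2 difference was -0.36 against -0.01 for the 13654 genes tested, of which 47.7% lay above 0. No gene of the 9 was called, where 0.0952% of all genes were, and 7 of 9 reached an unadjusted p under 0.05 against 13.4% of all genes. DESeq2 called Dlgap2 and Dlgap4, and limma voom none. In DKO the median was -0.32 against -0.02, 1 of 9 was called (4.85% of all genes), and 7 of 9 reached an unadjusted p under 0.05 against 24.9%. TE holds the mRNA value with its sign turned, so it is no independent count beside the mRNA result. No label ties a footprint library to an mRNA library, and the 2 assays have separate batches.

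Shank1 was the gene called, and its TE fell. Its footprints per mRNA went from 0.177 in WT to 0.0872 in DKO, and the fitted log2 difference was -0.80 ± 0.202, with an adjusted p of 0.031 by edgeR. In FXS it was -0.58 ± 0.179, with an adjusted p of 0.214, and in S6K1 -0.32 ± 0.206, with an adjusted p of 0.777. The DKO call held in 17 of 25 alternative analyses. It was lost, at log2 differences of -0.71 to -0.86, when 1 library was left out among the WT and DKO mRNA libraries of batches 6 and 7, the WT footprint library of batch 3 and the DKO footprint libraries of batches 3 and 4. Without the batch term it was also lost, at -1.04.

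Among the other SHANK genes, TE of Shank3 gave -0.51 ± 0.165 in FXS and -0.46 ± 0.186 in DKO, and Shank2 gave -0.34 ± 0.156 and -0.28 ± 0.176. The DLGAP genes ran from -0.24 (Dlgap1) to -0.44 (Dlgap3) in FXS and from -0.24 (Dlgap2) to -0.44 (Dlgap3) in DKO. Dlgap1 in DKO had the next lowest adjusted p of the 9, 0.064 by edgeR, at -0.32 ± 0.101, and DESeq2 called it. Iqsec2 gave -0.22 ± 0.161 in FXS and -0.48 ± 0.181 in DKO. Dlg4 gave -0.08 ± 0.0916 and -0.07 ± 0.102, with a 95% interval in DKO of -0.28 to 0.14. Dlg4 thus had the smallest TE difference of the 9 in both genotypes, and whether it differed from the others was not tested.

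**Figure D5:**
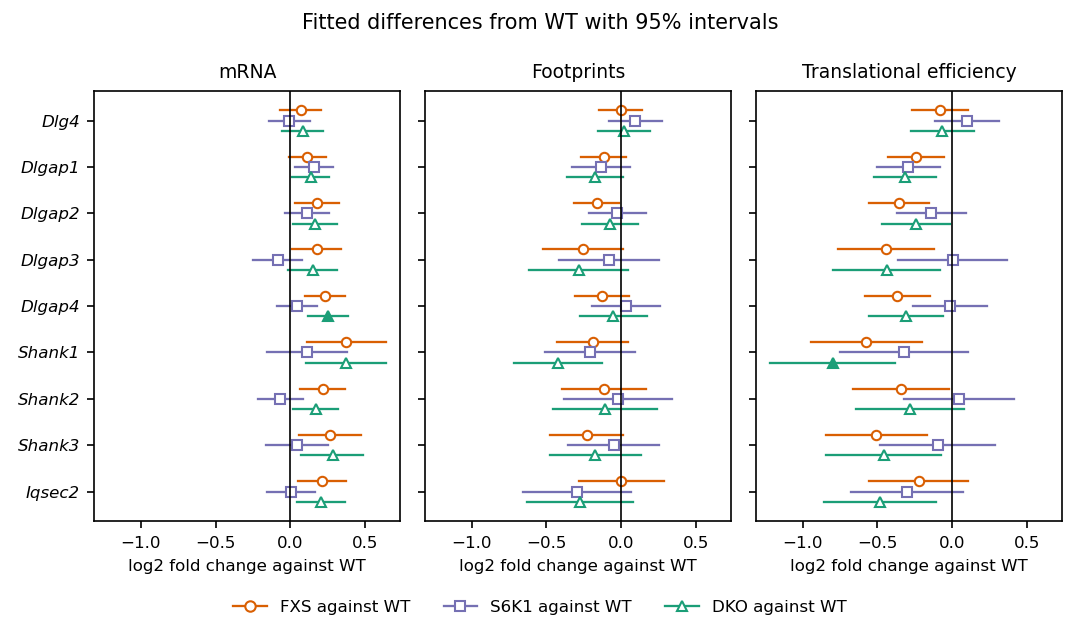
Fitted log2 fold changes against WT of each scaffold gene in mRNA, footprints and TE, with 95% intervals, for FXS (circles), S6K1 (squares) and DKO (triangles), filled where the adjusted p was under 0.05. All FXS and DKO points lie above 0 in mRNA and below 0 in TE, and the 2 filled symbols are Dlgap4 mRNA (0.25) and Shank1 TE (-0.80), both in DKO.

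In S6K1 against WT, TE was below 0 for 6 of 9 genes, with a median of -0.10, and none was called (0.0293% of all genes). The 1 gene at an unadjusted p under 0.05 (7.51% of all genes) was Dlgap1, at -0.30 ± 0.103. In DKO against S6K1 all 9 were below 0, with a median of -0.30, none was called (0.00732% of all genes), and 3 reached an unadjusted p under 0.05 against 14.6% of all genes. These were Shank1 at -0.48, Dlgap3 at -0.44 and Dlgap4 at -0.30. In DKO against FXS the median was 0.02, with 6 above and 3 below 0, none called (0.0146% of all genes) and none at an unadjusted p under 0.05 (8.36%). DESeq2 and limma voom called none in these 3 comparisons.

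Whether loss of Rps6kb1 altered the effect of losing Fmr1 was tested with the genotype interaction, the DKO minus S6K1 difference less the FXS minus WT difference. None of the 9 genes was called by edgeR in mRNA (0% of all genes), footprints (0%) or TE (0%), none reached an unadjusted p under 0.05 (3.50%, 3.07% and 4.14% of all genes), and DESeq2 and limma voom called none. The interaction on TE was 0.10 for Shank1, with a 95% interval of -0.47 to 0.66, and 0.07 for Dlgap4, with an interval of -0.26 to 0.40. For the mRNA of Shank1 it was -0.11, from -0.49 to 0.26. Each of these intervals takes in a change as large as the difference of FXS from WT and opposite in direction. That difference was -0.58 for Shank1 TE, -0.37 for Dlgap4 TE and 0.38 for Shank1 mRNA.

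In the authors' deposited tables, which cover FXS and DKO against WT, Dlgap4 mRNA was the entry of the 9 genes with an adjusted p under 0.05, at 0.0148 in FXS (log2 fold change 0.24) and 0.00446 in DKO (0.25). For Shank1 the authors' deposited table gave a TE log2 fold change of -0.78 in DKO with an adjusted p of 0.123, and a footprint log2 fold change of -0.43 with an adjusted p of 0.0839. Shank3 mRNA in DKO had an adjusted p of 0.0583 in the authors' deposited table. No footprint or TE value of the 9 genes was under 0.05 there.

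Other genes of the postsynaptic density were measured beside the 9, and the difference between the 2 lists was not tested. Of 32 further scaffold, signalling and adhesion genes, all tested, 26 had mRNA above WT in FXS with a median of 0.10, and 25 in DKO with a median of 0.10. None was called in FXS and 4 rose in DKO, where 0.155% and 5.23% of all genes were called. Among them were Camk2b, a subunit of the kinase CaMKII, at 0.25, the adhesion gene Nlgn2 at 0.33, and Abi2, a subunit of an actin regulator, at 0.29. TE lay below WT for 29 of the 32 in FXS (median -0.20), with none called, and for 23 in DKO (median -0.21), where 5 fell and 4.85% of all genes were called. The 4 of smallest adjusted p were Iqsec1, the paralog of Iqsec2, at -0.39, Nlgn2 at -0.70, Nlgn3 at -0.44 and Magi2, a scaffold of the same superfamily as PSD-95, at -0.40. Footprints of 26 and 21 of the 32 lay below WT in FXS and DKO, with medians of -0.11 and -0.12 and none called.

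Across the synaptic cleft, 14 genes of the presynaptic active zone had a median mRNA difference of 0.15 in FXS (13 above 0, none called) and 0.09 in DKO (11 above 0). In DKO Bsn, encoding bassoon, at 0.32 and Ppfia3, encoding a liprin, at 0.49 rose, where 5.23% of all genes were called. TE of these active zone genes lay below WT for 10 of 14 in FXS, with a median of -0.13, and for 7 of 14 in DKO, with a median of 0.01, and none was called in either. The difference between the active zone genes and the scaffold genes was not tested.

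The level pattern most like that of the 9 genes was sought over all 31 libraries, as the root mean square difference between a gene's batch-centred log2 CPM and the mean of the 9. Among the nearest non-members of 13654 genes were Fam160a2 (0.0619), Myo18a (0.063), Neurl4 (0.0642) and Arnt2 (0.0652), against a median of 0.186 over all genes. Of the members, Dlgap2 (0.0577) and Dlgap4 (0.0612) were nearest to their shared mean, and Shank1 (0.117, rank 915) and Iqsec2 (0.13, rank 1720) farthest from it. The mean includes each member's own values.

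Markers of other cells were measured beside these results, and their part in them was not tested. The share of all genes called against WT was 0.155%, 0.165% and 0.0952% in FXS mRNA, footprints and TE. In DKO it was 5.23%, 0.366% and 4.85%, and in S6K1 TE it was 0.0293%. Of 8 markers of cortical excitatory neurons, cells rich in postsynaptic densities, 3 rose in DKO mRNA, among them Slc17a7 at 0.33 and Tbr1 at 0.28, and none was called in FXS. Their summed mRNA was 1937 to 2830 CPM in WT, 2106 to 3412 CPM in FXS and 2127 to 3504 CPM in DKO. The mRNA of 7 of the 8 lay above WT in FXS and of 7 in DKO, with medians of 0.09 and 0.24. Their footprints lay below WT for 8 of 8 in FXS (median -0.19) and 7 of 8 in DKO (median -0.26), with none called. Their TE lay below WT for 7 of 8 in FXS (median -0.26, none called) and 7 of 8 in DKO (median -0.50), where Slc17a7 and Tbr1 fell, by 0.63 and 0.51. In S6K1 all 8 of these markers also lay below WT in footprints (median -0.24) and in TE (median -0.33), with none called. Of 8 interneuron markers Pvalb fell in mRNA in both genotypes, by 0.60 in FXS and 0.39 in DKO, and no other was called. Of 10 oligodendrocyte markers, 3 fell in FXS footprints, 4 in DKO footprints and 7 in DKO TE. For TE, Myrf also fell in FXS, by 0.70, and Cnp in S6K1, by 0.63. In S6K1 all 10 lay below WT in footprints (median -0.47, none called) and in TE (median -0.54). The summed footprints of the 10 were 2850 to 4124 CPM in WT, 1824 to 2747 CPM in FXS and 1922 to 2721 CPM in DKO. Of 10 striatal markers none was called, with summed mRNA of 379.9 to 678.9 CPM over all libraries. Their summed footprints were 122.4 to 621.2 CPM in WT, 137.7 to 487.3 CPM in FXS, 201.7 to 583.5 CPM in S6K1 and 119.3 to 248.5 CPM in DKO. Fitted with batch, their footprints lay above WT for 10 of 10 in S6K1 (median 0.69, and 0.84 for TE) and 9 of 10 in DKO (0.25, and 0.40 for TE), and for 6 of 10 in FXS (0.04, and 0.13 for TE). Dlgap3 and Shank3 are also abundant in striatum. Of 8 astrocyte, 8 microglial and 8 endothelial markers, and 4 of 5 blood markers that were tested, only Slco1a4, an endothelial transporter gene, was called, falling by 0.63 in DKO mRNA. The mRNA of all 8 endothelial markers lay below WT in S6K1 (median -0.43) and DKO (median -0.36), and of 3 in FXS (median 0.10). Their footprints lay below WT for 8 of 8 in S6K1 (median -0.50), 7 in DKO (median -0.34) and 4 in FXS (median 0.04). The mRNA of the 4 blood markers lay below WT in FXS (median -0.58) and DKO (median -0.99). Their TE lay above WT in both (medians 0.97 and 1.61). No marker was at 0 in any group.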

How the data were processed

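Ribosome footprints and polyA-selected mRNA of mouse cortex were deposited by the authors as raw whole-number counts per gene over coding sequence, with 1 column per library. The submitters' processing notes name cutadapt 2.0, Bowtie2, TopHat2, RSEM and the mm10 build, and their roles, settings and the annotation are not given in the sources used here. The authors also deposited tables for FXS and DKO against WT with log2 fold changes, p-values and, as scores, mean levels and test statistics, per the file headers. The model behind them is not given there.

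Counts were filtered with filterByExpr (minimum count 10, on genotype), which all 9 genes passed in both assays, scaled with TMM within each assay and fitted with edgeR 4.0.16 (R 4.3.3) by robust quasi-likelihood, with genotype and labelled batch as terms. TE was the difference between assays in 1 model of 31 libraries over the genes that passed in both, with batch nested in assay. P-values were adjusted over all genes tested, and a gene was called at 0.05. CPM values are scaled by TMM and not adjusted for batch. DESeq2 1.42.0, limma voom 3.58.1, RLE factors, no filter, no batch term, fewer genotypes, and fewer libraries or batches were alternatives. The fits were tested on simulated data.

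Libraries of 1 labelled batch deviated together, with a median correlation of 0.271 over 24 mRNA pairs (23 above 0.1) and 0.298 over 20 footprint pairs (16 above 0.1), against -0.136 and -0.099 for other pairs, so the batch was kept as a block. Replicates differed by more than sampling noise, with a lowest chi-square per degree of freedom of 4.81 for mRNA and 8.09 for footprints. Pairs were taken within a genotype without regard to batch. Every mRNA pair came from different batches, so the mRNA excess includes differences between batches. No deposited column belonged to another series.

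The 9 genes and the gene lists were chosen with earlier results of these data known. Genes named beside the 9 were the 2 targeted genes, up to 4 called genes of smallest adjusted p of each list in a comparison, and the 5 genes nearest in pattern. Some genes that meet this rule are not reported here. Standard errors reflect the spread between libraries.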

Additional observations from a re-analysis of the deposited data

Results flagged for a closer look

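Of 54 groups of 4 or 5 libraries, 5 held a library that stood apart from the rest of its group by Dixon's criterion, which chance meets in about 1 group in 20. Dlg4 mRNA in DKO was 1531 CPM in the batch 5 library and 1687 to 1709 CPM in the other 3. Dlgap3 mRNA in DKO was 512.1 CPM in the same library and 680.5 to 713.1 CPM in the others. Dlgap4 mRNA in WT was 386.2 CPM in the batch 8 library and 306.9 to 317.7 CPM in the others. Dlgap4 footprints in WT were 197.2 CPM in the batch 3 library and 240.9 to 243.7 CPM in the others, and in FXS they were 156.9 CPM in the batch 3 library and 222.3 to 242.3 CPM in the others. All 5 lie in mRNA batches 5 and 8 or in footprint batch 3, and both Dlgap4 footprint values are the lowest of their genotype.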

How the results depend on the processing

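The directions of mRNA and TE in FXS and DKO against WT held in nearly every alternative. The mRNA of all 9 genes lay above WT in each of 16 alternatives, with medians of 0.15 to 0.29 in FXS and 0.14 to 0.25 in DKO. TE lay below WT for all 9 in FXS in 27 alternatives (medians -0.41 to -0.30), and for at least 8 of 9 in DKO in 25 (medians -0.54 to -0.29). Footprints lay above WT for 0 to 2 of 9 in both. Of 3267 gene results under alternatives, 3220 stayed on their side of the threshold, 16 lost a call, 31 gained one and 0 reversed a called direction, while 311 changed sign with no call either way.

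The number of the 9 genes called depended on several choices, and the cause was not tested. The share of all genes called under the same setting is given in parentheses. DESeq2 called 1 for mRNA in FXS against WT (1.41%), 2 in DKO against WT (7.49%; Shank3 and Dlgap4) and 2 in DKO against S6K1 (2.48%), and for TE 2 in FXS (0.952%) and 2 in DKO (8.36%) against WT. With batch dropped from the model (no replicate block), the DKO comparison with WT gave 0 for mRNA (0.0141%) and 0 for TE (0.0146%). Fitting only the genotypes compared gave 3 called mRNAs in FXS (3.20%) and 2 in DKO (4.52%) against WT. Without mRNA batch 5 there were 0 in DKO against WT (3.38%). Without mRNA batch 8 there were 5 in FXS against WT (2.39%), 5 in DKO against WT (10.6%) and 6 in DKO against S6K1 (3.89%). Leaving out 1 library at a time gave 0 to 1 for mRNA in FXS against WT (up to 0.601%), 0 to 1 in DKO against WT (0.496% to 7.64%) and 0 to 3 in DKO against S6K1 (up to 2.74%), and 0 to 1 for TE in DKO against WT (0.0583% to 8.04%). Leaving out mRNA batch 8 or footprint batch 1 and scaling TE on each assay's own genes were chosen after seeing the data.

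DKO and S6K1 have 3 footprint libraries each, 1 of them in a batch with no WT library. Standard errors of the footprint differences from WT were 0.0663 to 0.168, against 0.0609 to 0.125 for mRNA.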
